A study of Mus musculus with 4 samples.

Results

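The genes described here are 10 members of the BCL-2 family, which sets the threshold at which a cell dies through its mitochondria. They were chosen by name, as every probe set whose platform gene symbol is exactly Bcl2, Bcl2l1, Mcl1, Bcl2l11, Bik, Bax, Bak1, Bad, Bid or Bbc3. These symbols matched 31 of the 45037 probe sets other than controls and 9 of the 10 genes, because Bax had no probe set under its own symbol. The RNA came from peripheral mouse regulatory T (Treg) cells, the suppressive CD4+ lineage defined by the transcription factor Foxp3. All cells had been exposed to Cre recombinase by treatment with HR-MMPCreGFP and were recovered as CD4+ YFP+ Ly5.2+ T cells 6 weeks after adoptive transfer. The deleted group carried a loxP-flanked Foxp3 gene, which Cre can excise (Foxp3delta, 2 arrays), and the wild-type group an intact Foxp3 gene (Foxp3+, 2 arrays). YFP reports exposure to Cre in both groups, so it does not mark loss of Foxp3 by itself. Age, strain background and transfer hosts are not stated in the labels.

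BCL-2 proteins fall into opposing classes. The pro-survival proteins BCL-2, BCL-XL (from Bcl2l1) and MCL-1 hold the effectors BAX and BAK in check, and the BH3-only proteins BIM (from Bcl2l11), BIK, BAD, BID and PUMA (from Bbc3) bind and neutralise them or activate the effectors. Once active, BAX or BAK permeabilises the outer mitochondrial membrane and cytochrome c is released to start the caspase cascade. In Treg cells, MCL-1 is known to be required for survival and BIM to drive their turnover, and interleukin-2 signalling is known to shift this balance.

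The deposited values are intensities normalized with GCRMA, a method that leaves dim probe sets near a common floor. Differences are given on the log2 scale as deleted minus wild type, so that 1 means a doubling, with the standard error (SE) from limma. Testing was limited to the 16281 probe sets whose log2 intensity averaged 4 or more over the 4 arrays. Of the 31 member probe sets 20 passed this filter, from 8 genes, and Bbc3 had none above it. Foxp3 read 8.77 and 8.75 in the deleted arrays against 11.40 and 11.23 in wild type, a difference of -2.55 (SE 0.26, adjusted p = 0.115 in limma), and kept 17.0% of the control level. The number of arrays limits the precision, and the labels do not say whether the replicates were separate animals or preparations. Each p-value thus rests on the spread among 4 samples, part or all of which may be technical. It also rests on a variance that limma estimates from all tested probe sets.

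Direction did not follow function among the pro-survival genes. Of these, Bcl2 was higher in deleted cells on 4 of 4 probe sets whose means were at least 4 in both groups, with a median difference of 0.77. The other tested set, 1422938_at, passed the filter only through the deleted arrays, where it is high, and is left out of that count. Mcl1 and Bcl2l1 were lower on 7 of 7, with a median of -0.71. Among the pro-death genes 7 of 8 tested probe sets were higher on average, with a median of 0.60, and the largest differences were those of Bik (2.54) and Bcl2l11 (2.26). Over all tested probe sets 50.5% were higher and 49.5% lower on average, and the median difference was 0.0058. No member passed an adjusted p of 0.05 in limma, and neither did any of the 16281 probe sets tested (0% called). At an unadjusted p under 0.05, 7 of the 20 member probe sets were called, against 1507 of all tested, which is 9.26%. Of these 7, 4 were higher (5.38% of all tested) and 3 lower (3.88%). Without 1422938_at, whose selection favoured a difference, they were 6 of 19, 3 in each direction, against 1210 of the 15267 probe sets with both group means at least 4. The groups did not overlap on 14 of the 20, against 40.0% of all tested probe sets. By direction these were 8 higher, against a background of 18.9%, and 6 lower, against 21.1%. Without 1422938_at they were 13 of 19, against 38.2% of those 15267. Over all 31 member probe sets, those near the floor included, 14 were higher and 17 lower on average, with 5 of 15 higher for pro-survival and 9 of 16 for pro-death genes. Several of these probe sets measure the same transcript, so they are not independent counts. Whether pro-survival and pro-death members differed from each other was not tested.

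**Figure D1:**
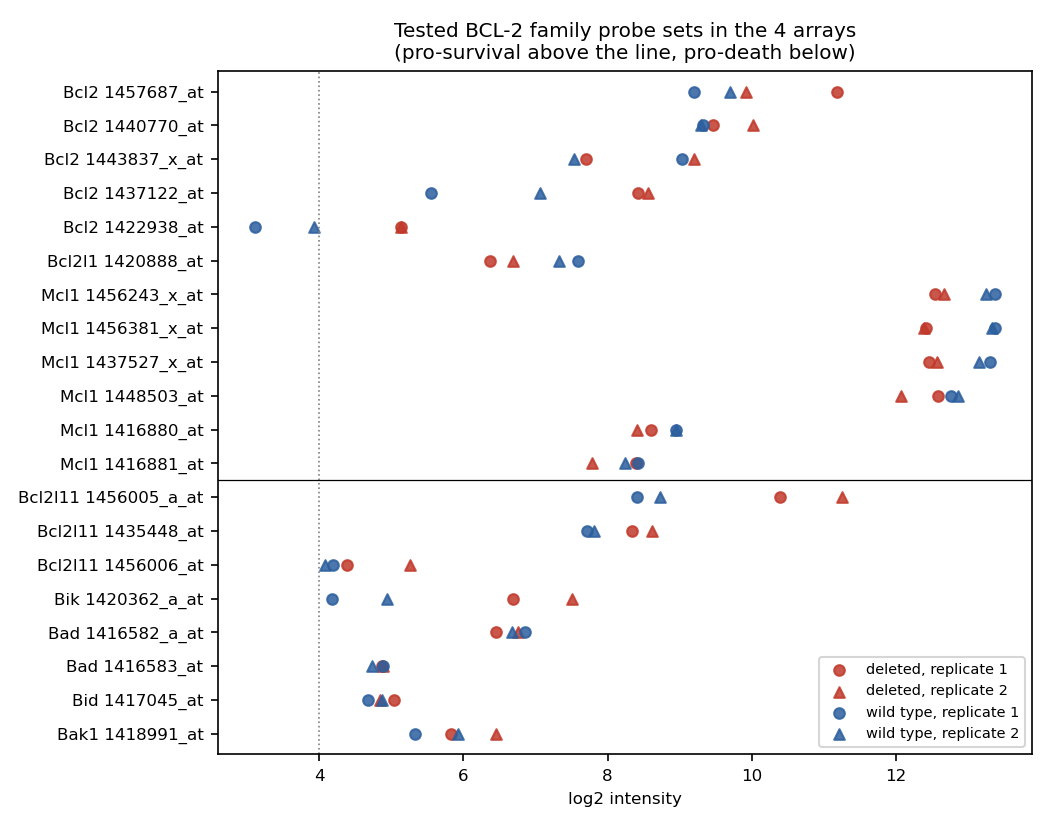
Log2 intensity (x axis) of the 20 tested member probe sets (rows) in each of the 4 arrays, red for deleted and blue for wild type, circles for replicate 1 and triangles for replicate 2. The dotted line marks the filter at 4, and a reader should see red points to the right for Bcl2, Bcl2l11 and Bik and to the left for Mcl1 and Bcl2l1, except for 1443837_x_at of Bcl2 and 1416881_at of Mcl1, where the groups overlap.

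Bcl2 encodes the founding pro-survival protein of the family, which supports the persistence of naive and memory T cells. Its 5 probe sets were all above the filter but gave sizes from 0.17 to 2.19. Probe set 1437122_at read 8.43 and 8.56 in the deleted arrays, and 5.55 and 7.06 in the controls. The deleted arrays lay close together and the wild-type arrays 1.52 apart, with a difference of 2.19 (SE 0.59, 95% interval 0.68 to 3.70, adjusted p = 0.387). That is 4.56-fold, and it ranked 154 of 16281 from the highest.

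Probe set 1422938_at of Bcl2 read 5.13 and 5.14 against 3.11 and 3.92, higher by 1.62 (SE 0.39, adjusted p = 0.334). It passed the filter only through the deleted arrays, so a difference was built into its selection. With values below 4 raised to 4 it was higher by 1.14. Probe set 1457687_at, the brightest of Bcl2, read 11.19 and 9.92 against 9.19 and 9.71. Deleted replicate 1 stood well above the other 3 arrays, and the difference of 1.10 (SE 0.50, adjusted p = 0.607) was 0.47 without it.

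The other Bcl2 probe sets showed little separation. Probe set 1440770_at read 9.47 and 10.03 against 9.32 and 9.30, a difference of 0.44 (SE 0.33) that was 0.16 without deleted replicate 2. Probe set 1443837_x_at read 7.70 and 9.20 against 9.03 and 7.54, so each group held 1 high and 1 low array. Its difference of 0.17 (SE 0.74, 95% interval -1.74 to 2.07) was -0.58 without deleted replicate 2 or without wild-type replicate 2. The suffix _x_at marks a set with probes that can also bind other sequences. Bcl2 was thus higher by direction on each probe set, but its size depended on which one was read.

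Mcl1 encodes a short-lived pro-survival protein that binds BIM and BAK. All 6 of its probe sets were tested and all had a lower mean in deleted cells. Probe set 1456381_x_at read 12.42 and 12.39 against 13.38 and 13.34, lower by 0.95 (SE 0.15, 95% interval -1.35 to -0.56, adjusted p = 0.184). This left 51.7% of the wild-type signal, and the replicates of each group were nearly superimposed. It had the lowest adjusted p of the 20 member probe sets. Like the Bcl2 set with the suffix _x_at, it has probes that can also bind other sequences.

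A pair of further Mcl1 sets of the same kind lay close to it. Probe set 1456243_x_at read 12.55 and 12.67 against 13.38 and 13.25, lower by 0.71 (SE 0.16, adjusted p = 0.322). Probe set 1437527_x_at read 12.47 and 12.57 against 13.31 and 13.16, lower by 0.72 (SE 0.16, adjusted p = 0.322). In neither did the groups overlap, and the gap between groups was several times the distance between replicates.

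The Mcl1 sets without that suffix showed smaller differences. Probe set 1448503_at read 12.58 and 12.07 against 12.78 and 12.87, lower by 0.50 (SE 0.23, adjusted p = 0.617), or by 0.24 without deleted replicate 2. Probe set 1416880_at read 8.60 and 8.41 against 8.95 and 8.95, lower by 0.45 (SE 0.31, adjusted p = 0.723). Probe set 1416881_at read 8.39 and 7.79 against 8.42 and 8.24, so its groups overlapped. Its difference of -0.24 (SE 0.38) was 0.062 without deleted replicate 2. The agreement in direction of the 6 sets comes from the same 4 RNA samples and adds no replicate.

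Bcl2l1 encodes BCL-XL, which T cells induce on activation. Only 1420888_at of its 4 probe sets passed the filter. It read 6.37 and 6.69 in deleted arrays and 7.59 and 7.32 in wild-type arrays, without overlap. It was lower by 0.93 (SE 0.36, 95% interval -1.87 to 0.01, adjusted p = 0.542), which left 52.6% of the signal. The other 3 probe sets of Bcl2l1 lay at the floor, between 2.20 and 2.37 in all arrays.

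**Figure D2:**
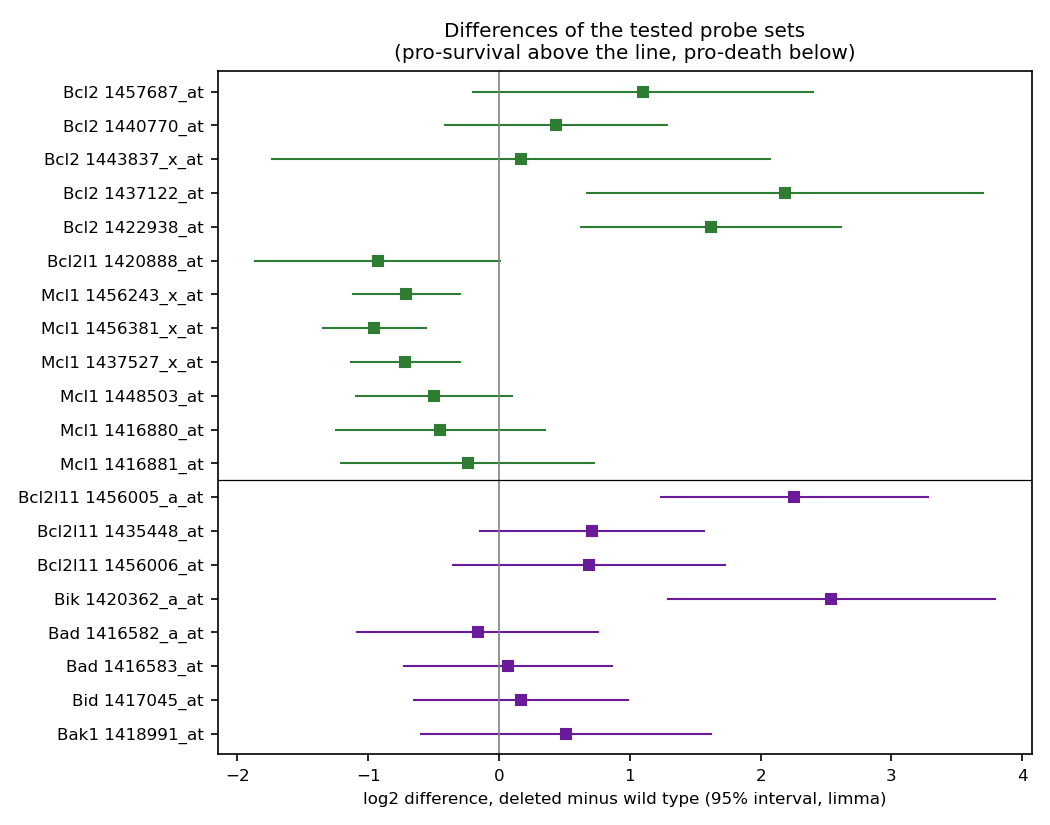
Log2 difference, deleted minus wild type (x axis), of the 20 tested member probe sets (rows), with squares for the estimate and lines for the 95% interval from limma. Green marks pro-survival and purple pro-death members. The intervals of 7 probe sets leave out 0, before any adjustment for the number of tests. They are those of 2 Bcl2 sets, 3 Mcl1 sets, 1 Bcl2l11 set and Bik. The 3 Mcl1 sets all carry the suffix _x_at, and 1 of the Bcl2 sets, 1422938_at, passed the filter only through the deleted arrays.

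Bcl2l11 encodes BIM, the BH3-only protein that removes self-reactive thymocytes and T cells short of cytokine. Its promoter is shown because forkhead factors, among them the FOXO proteins, are known to act on this gene. The sequence core GTAAACA (or its reverse complement TGTTTAC), to which forkhead proteins bind, was searched on both strands in RefSeq windows of 300 bases, from 250 before to 50 after each annotated start, in assembly GRCm38.p6. Of 32851 windows 3.65% held it. Of the 15 windows of members, from 9 genes, 2 did, and no window was matched for Bik. The 250 bases before the upstream start of Bcl2l11 are given 5′ to 3′ from chr2:128125788-128126037 (plus strand, GRCm38.p6), and 30 bases around the match of Bbc3 from chr7:16310082-16310111 (plus strand), with the core in capitals.
Bcl2l11: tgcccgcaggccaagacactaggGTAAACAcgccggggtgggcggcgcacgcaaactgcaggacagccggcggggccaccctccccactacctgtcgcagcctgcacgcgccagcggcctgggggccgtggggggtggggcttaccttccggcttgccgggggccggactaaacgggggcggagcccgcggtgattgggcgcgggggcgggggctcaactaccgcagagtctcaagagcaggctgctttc
Bbc3: gtctggcgggttTGTTTACaaacaatgggg
A match of this kind is a description of letters and not a binding site. The STAT core TTCNNNGAA, the palindrome that STAT5 can bind downstream of interleukin-2, was in 8.30% of all windows and in 0 of the 15 windows of members.

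Of the 5 probe sets of Bcl2l11, 3 passed the filter and all 3 were higher in deleted cells without overlap. Probe set 1456005_a_at read 10.40 and 11.26 against 8.41 and 8.73, higher by 2.26 (SE 0.40, 95% interval 1.24 to 3.28, adjusted p = 0.209). That is 4.78-fold, ranked 134 of 16281 from the highest, and both deleted arrays lay more than 1 above both wild-type arrays. Probe set 1435448_at read 8.34 and 8.61 against 7.72 and 7.82, higher by 0.71 (SE 0.33, adjusted p = 0.619). The replicates of each group lay within 0.27 of each other on this set.

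Probe set 1456006_at of Bcl2l11 read 4.38 and 5.26 against 4.19 and 4.07, close to the filter. Its difference of 0.69 (SE 0.40, adjusted p = 0.685) was 0.25 when deleted replicate 2 was left out and 1.12 when deleted replicate 1 was. The remaining probe sets, 1426334_a_at and 1435449_at, lay at the floor, with differences of -0.023 and 0.17. The spread from 0.69 to 2.26 between the tested sets of Bcl2l11 means that no single size can be given for the gene. The platform annotation used here does not give which transcript variants each set covers.

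Bik encodes a BH3-only protein that resides largely at the endoplasmic reticulum. Its set 1420362_a_at had the largest difference of all member probe sets. The deleted arrays read 6.69 and 7.50, and the wild-type arrays 4.17 and 4.94. It was higher by 2.54 (SE 0.49, 95% interval 1.29 to 3.79, adjusted p = 0.252), or 5.82-fold, and ranked 83 of 16281 from the highest. With 16 added to each intensity before log2 the difference was 1.95, so its size depends on how the dim wild-type values are treated. A second Bik set, 1449836_x_at, was below the filter at 3.34 and 3.46 against 2.79 and 2.89, a difference of 0.55 in the same direction. The third, 1420363_at, stayed between 2.90 and 2.92 in all arrays.

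The remaining BH3-only genes showed little difference. Bad, whose protein is inactivated by phosphorylation downstream of growth factors, read 6.45 and 6.75 against 6.85 and 6.67 on 1416582_a_at, with a difference of -0.16 (SE 0.36, 95% interval -1.09 to 0.76). On 1416583_at it read 4.87 and 4.88 against 4.89 and 4.72, with a difference of 0.067 (SE 0.31) that was -0.014 without wild-type replicate 2. Bid, cleaved by caspase-8 to link death receptors to mitochondria, read 5.04 and 4.83 against 4.67 and 4.86 on 1417045_at, with a difference of 0.17 (SE 0.32, 95% interval -0.65 to 0.98). The groups overlapped on all 3 sets, and each interval reaches past 0.7 in at least 1 direction, so a change of that size is not excluded.

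Bbc3 encodes PUMA, which p53 and FOXO factors are known to induce. Its only probe set, 1423315_at, read 3.68 and 3.52 against 3.81 and 3.60, just below the filter. It was not tested, and a change from so low a level could be hidden by the floor. Of the 2 members with a forkhead core in a promoter window, Bcl2l11 was higher and Bbc3 was too dim to test, so their differences cannot be compared.

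The effector Bak1, which encodes BAK, read 5.83 and 6.45 against 5.33 and 5.93 on 1418991_at. The groups overlapped, as wild-type replicate 2 lay above deleted replicate 1, and the difference was 0.51 (SE 0.43, 95% interval -0.60 to 1.62, adjusted p = 0.762). It was 0.20 when deleted replicate 2 was left out and 0.82 when deleted replicate 1 was. A second Bak1 set, 1425716_s_at, lay at the floor, at about 2.0 in every array.

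The 11 member probe sets below the filter were those of Bbc3 (1), Bcl2l1 (3), Bcl2l11 (2), Bik (2), Bak1 (1) and Bid (2). In deleted cells 9 of these were lower and 2 higher on average, with a median difference of -0.026. The Bid set 1447873_x_at differed by -0.38, from 3.15 and 3.49 in wild type to 2.95 and 2.94 in deleted cells. The deleted arrays also had a slightly lower median over all probe sets, 3.07 and 3.07 against 3.16 and 3.09 on the log2 scale. Differences of a few hundredths at this level therefore carry no information on these genes.

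**Figure D3:**
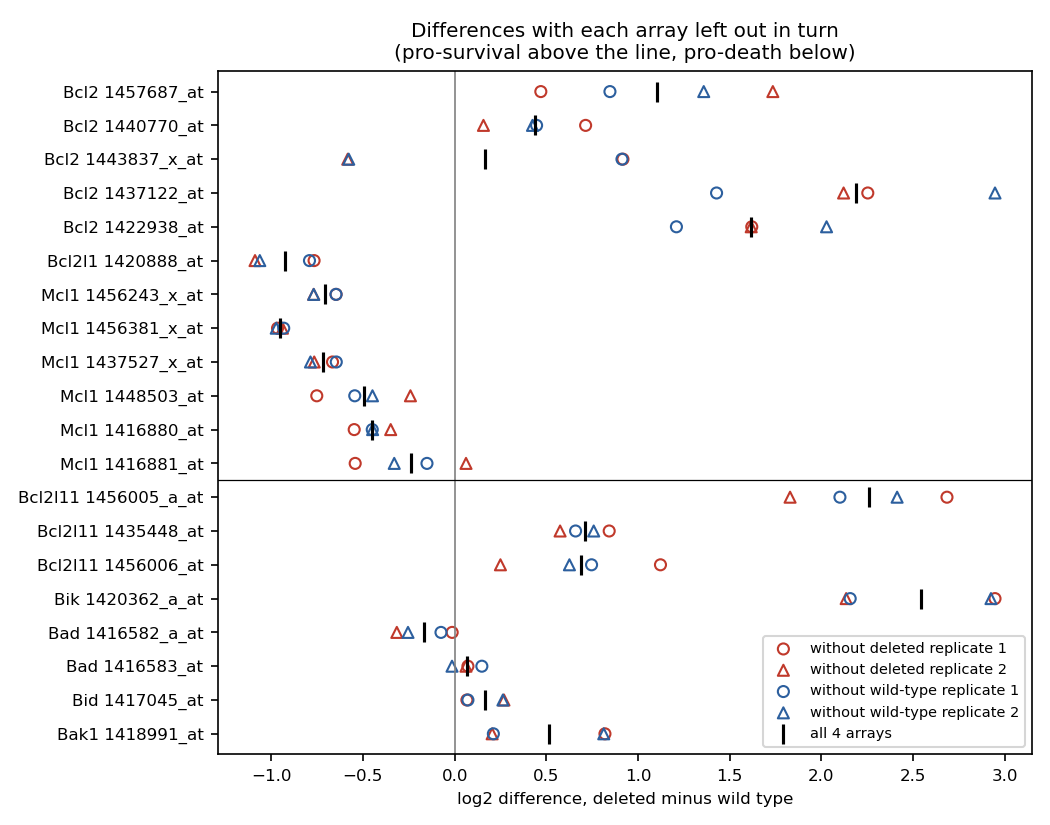
Log2 difference, deleted minus wild type (x axis), of the 20 tested member probe sets (rows) with all 4 arrays (black bar) and with each array left out (open symbols). The sign was kept by 17 probe sets in every case and turned for 1443837_x_at of Bcl2, 1416881_at of Mcl1 and 1416583_at of Bad. For the 14 sets whose groups do not overlap, leaving out 1 array cannot turn the sign.

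For the leading members the groups did not overlap, so leaving out 1 array could not turn their direction. It shows only how far their size varied. Bik lay between 2.14 and 2.95, Bcl2l11 on 1456005_a_at between 1.83 and 2.69, and Mcl1 on 1456381_x_at between -0.97 and -0.93. Bcl2 on 1437122_at lay between 1.43 (wild-type replicate 1 left out) and 2.95 (wild-type replicate 2 left out). The median over the tested pro-death sets was 0.83 when deleted replicate 1 was left out and 0.26 when deleted replicate 2 was. The size of that median thus rests on deleted replicate 2, whereas both deleted arrays lay above both wild-type arrays for Bik and Bcl2l11.

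Markers of T cells were present in all arrays (6 of 6 measured genes above the filter, summed intensity 13070 to 15760), and Treg markers were lower in deleted cells (6 of 6 genes, 2795 and 4830 against 17790 and 19000). Markers of other cells moved in part with the groups. Myeloid markers (4 of 7 measured genes above the filter) summed to 2215 in deleted replicate 1, against 605.3 to 749.4 in the other arrays, with Cd14 and Itgam at the floor. Natural killer markers (1 of 3 above the filter, Nkg7) summed to 2426 and 1211 in deleted cells against 411.5 and 455.3, with Ncr1 at the floor. Proliferation markers (5 of 5) differed within the groups, at 3044 and 9203 in deleted and 4344 and 6962 in wild-type arrays. B cell markers (2 of 5 above the filter) summed to 97.1 to 175.6 with Cd79a and Pax5 at the floor. The 2 above the filter went opposite ways without overlap, with differences of -2.04 for Cd79b and 1.37 for Cd22. No CD8, dendritic cell or erythroid list exceeded a sum of 25.5. Without deleted replicate 1 the differences of Bik, Bcl2l11 (1456005_a_at) and Mcl1 (1456381_x_at) were 2.95, 2.69 and -0.97. Without deleted replicate 2, which had the highest proliferation sum, they were 2.14, 1.83 and -0.94. The difference of Bcl2 on 1457687_at, its brightest set, was 0.47 without deleted replicate 1 in place of 1.10, and 1.74 without deleted replicate 2. On the other Bcl2 sets it was not smaller without deleted replicate 1, at 2.25 (1437122_at), 1.62 (1422938_at), 0.71 (1440770_at) and 0.92 (1443837_x_at). The part of myeloid genes, natural killer genes and proliferation in the differences of the members was not tested. In these bulk samples, fewer cells of a type and less RNA per cell cannot be told apart.

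Other relatives of the family showed no shared direction. Of 18 listed genes 13 had a probe set of their own and 7 were tested, 3 higher and 4 lower, with a median difference of -0.13 and 0 past an adjusted p of 0.05 in limma (1 at an unadjusted p under 0.05). Over the 8629 genes tested, with 1 probe set each, 48.1% were higher and 51.9% lower, 9.53% had an unadjusted p under 0.05 and the groups did not overlap for 39.7%. The groups did not overlap for 3 of the 7. Bnip3, a mitochondrial protein gene linked to hypoxia and mitophagy, read 5.46 and 3.98 against 7.04 and 6.32, lower by 1.96 (SE 0.62, adjusted p = 0.45). Bmf, a BH3-only gene released from the cytoskeleton on detachment, read 4.89 and 5.23 against 6.17 and 5.35, lower by 0.70 (SE 0.43). Bcl2l2, which encodes the pro-survival protein BCL-W, read 5.25 and 5.65 against 4.52 and 5.11, higher by 0.63 (SE 0.39). Bmf was thus opposite in sign to the BH3-only genes Bik and Bcl2l11. The Bcl2a1 genes were not analysed here, since their probe sets carry several gene symbols.

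Genes listed for the mitochondrial pathway of cell death went in both directions. Of 18 tested genes 8 were higher and 10 lower, with a median of -0.021. In limma 0 passed an adjusted p of 0.05. At an unadjusted p under 0.05 there was 1, against 9.53% of all genes tested. Apaf1, the scaffold of the apoptosome, read 8.22 and 8.63 against 6.10 and 8.09, higher by 1.33 (SE 0.72), with wild-type replicate 1 well below the other 3 arrays. Htra2, a mitochondrial protease that counters caspase inhibitors, read 8.90 and 9.14 against 10.19 and 10.00, lower by 1.07 (SE 0.29, adjusted p = 0.396). The other tested set of Htra2 differed by -0.73. Diablo, with a similar role, was lower by 0.63 (SE 0.37), but its other tested set differed by only -0.053. The executioner caspase gene Casp6 read 6.84 and 5.44 against 7.13 and 7.12, lower by 0.98 (SE 0.56). Of these 4 genes Htra2 had the widest gap between the groups.

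In the death receptor pathway 6 of 11 tested genes were higher and 5 lower, with a median of 0.061. In limma 0 passed an adjusted p of 0.05. At an unadjusted p under 0.05 there were 2, against 9.53% of all genes tested. Tnfrsf1b, which encodes the TNF receptor TNFR2, read 8.40 and 8.55 against 11.58 and 10.65, lower by 2.64 (SE 0.40, adjusted p = 0.174). Traf2, an adaptor bound by TNFR2, read 5.88 and 5.97 against 7.53 and 7.43, lower by 1.56 (SE 0.34, adjusted p = 0.309). The adaptor gene Fadd was lower by 0.72 (SE 0.48), and Tnfrsf1a, the death-domain TNF receptor, was higher by 0.56 (SE 0.34). The groups did not overlap for 5 of the 11, against 39.7% of all genes tested.

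Of 22 tested regulators of the family 14 were lower and 8 higher, with a median of -0.22, and 51.9% of all genes tested were lower. In limma 0 passed an adjusted p of 0.05. At an unadjusted p under 0.05 there were 3, against 9.53% of all genes tested. Il2ra, the alpha subunit of the high-affinity interleukin-2 receptor, read 5.92 and 4.26 against 9.47 and 9.36, lower by 4.33 (SE 0.63, adjusted p = 0.166). The other tested set of Il2ra differed by -2.48. Stat5a, which carries the signal of this receptor to the nucleus, read 5.23 and 6.54 against 6.88 and 7.01, lower by 1.06 (SE 0.54). The survival kinase gene Pim1 was lower by 1.68 (SE 0.25, adjusted p = 0.173). Its relative Pim2 was higher by 1.44 (SE 0.41, adjusted p = 0.407), from a wild-type mean of 3.72. Pim2 passed the filter only through the deleted arrays, so a difference was built into its selection. Without it 14 of 21 regulators were lower, against 4303 of the 8290 genes with both group means at least 4. In limma 2 of the 21 had an unadjusted p under 0.05, both lower. Of those 8290 genes 694 did, 333 of them lower. The forkhead genes Foxo1 and Foxo3 differed by -0.18 (SE 0.29) and -0.47 (SE 0.36) and are given because of the promoter core described above. Their adjusted p were 0.888 and 0.747 in limma, and the groups overlapped for Foxo1 but not for Foxo3. Over all tested sets the differences ran from -0.54 to 0.20 for Foxo1 and from -0.78 to -0.47 for Foxo3.

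**Figure D4:**
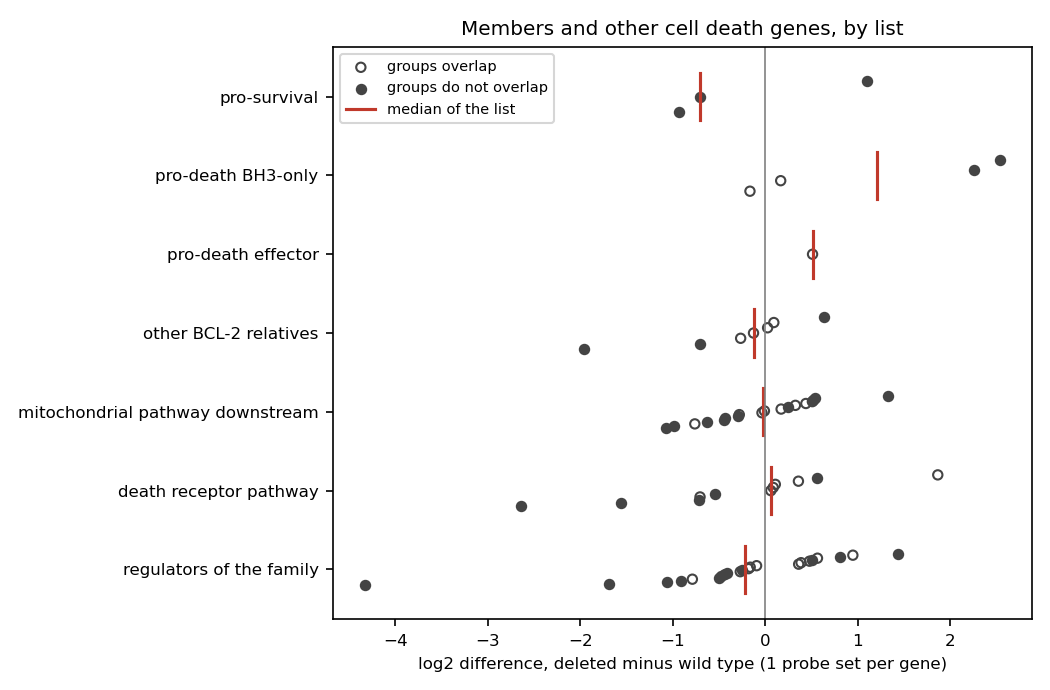
Log2 difference, deleted minus wild type (x axis), of each tested gene in the member lists and the 4 further lists (rows), with 1 probe set per gene. Filled points mark genes whose groups do not overlap, open points those that overlap, and red bars the list medians, which run from -0.71 for pro-survival to 1.21 for BH3-only genes.

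Taking 1 probe set per gene, the one with the highest mean, the median was -0.71 over the 3 pro-survival genes and 1.21 over the 4 tested BH3-only genes. The first of these rests on Mcl1 and Bcl2l1 against Bcl2 (1.10), and the second on Bik and Bcl2l11 against Bad and Bid. The medians describe so few genes that they show no more than the values of those genes. Over all 8629 tested genes the median difference was -0.018.

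The tested probe sets with the pattern most like Bik 1420362_a_at over the 4 arrays, by Euclidean distance after centring each on its mean, were those of Zfand6 (0.35), Laptm5 (0.353) and Pde7a (0.358). Their differences were 2.34, 2.67 and 2.35. In the wild-type arrays they read 3.67 and 4.04, 3.37 and 3.70, and 2.60 and 3.78. Each passed the filter only through the deleted arrays, so a difference was built into its selection. The sets most like Mcl1 1456381_x_at, the lowest member, were those of Prkch (0.0505), Ppp1r7 (0.0644) and Rpgrip1 (0.0827), with differences of -0.97, -0.95 and -0.97. With 4 arrays, likeness reflects little more than the size of the group difference and the order of the replicates.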

How the data were processed

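The deposited values are intensities on a linear scale, 1 column per array, which the authors made with GCRMA (version 1.1.3, per the submitters' processing notes). This method removes background by probe sequence, normalizes between arrays and leaves dim probe sets near a common floor. Log2 was taken with no pseudocount. Gene symbols came from the platform annotation (34958 probe sets with 1 symbol, 932 with several, 9211 with none), and updating by Entrez identifier against GRCm38.p6 changed 0 symbols. The 64 control probe sets were left out.

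All 16281 probe sets averaging 4 or more on the log2 scale were fitted with limma 3.58.1 in R 4.3.3 (lmFit, eBayes with an intensity trend), with two-sided p-values adjusted by Benjamini-Hochberg over all of them. Residual degrees of freedom were 2 and prior ones 2.98, and the procedure was tested on simulated data. Members and lists were chosen with earlier results of these data known, and the promoter motifs, with Foxo1 and Foxo3, were singled out after values were seen. Every member probe set is named. In each further list up to 4 genes with the largest difference and no overlap between groups are named. Samples were grouped by their labels, and no array equalled another. Alternatives covered the filter, a floor, a pseudocount, centring, the variance trend, the replicate block, 1 probe set per gene and leaving out each array. Tables and plots used Python 3.11.15, pandas 2.3.3 and matplotlib 3.10.9.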

Additional observations from a re-analysis of the deposited data

How the results depend on the processing

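No probe set passed an adjusted p of 0.05 in limma with all 4 arrays or under any of the 13 alternatives. The number at an unadjusted p under 0.05 was 1507, from 984 to 2145 with 1 array left out, 2293 of 45037 without a filter and 859 of 8629 with 1 probe set per gene. The lowest adjusted p of a member under any alternative was 0.151. Of the 20 tested member probe sets 17 kept their sign throughout, but many alternatives could not turn one. The filters, the variance trend, the replicate blocks and 1 probe set per gene leave the difference of a set as it is. On 14 of the 20 the groups did not overlap, so leaving out 1 array could not turn the sign. The 3 sets that changed sign kept it with the floor, the pseudocount and centring, and changed it only with an array left out. Their ranges were -0.58 to 0.92 (Bcl2 1443837_x_at), -0.54 to 0.062 (Mcl1 1416881_at) and -0.014 to 0.15 (Bad 1416583_at). The pro-survival median of -0.34 (-0.45 without 1422938_at of Bcl2, which passed the filter only through the deleted arrays) ranged from -0.55 to -0.30 and the pro-death median of 0.60 from 0.26 to 0.83 with 1 array left out. Without a filter the medians were -0.032 and 0.12, over 15 and 16 probe sets that include those at the floor. With 1 probe set per gene the pro-survival median was -0.71, over 3 genes. The replicate numbers of the labels need not pair the arrays, as deviations of same-numbered arrays correlated at -0.243. With the replicate block 0 probe sets passed (1092 at an unadjusted p under 0.05), and with the numbers crossed, an alternative chosen after seeing the data, 0 passed (2152 unadjusted). Precision is limited by 2 arrays per group and, for dim sets, by the floor.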
